A study of Mus musculus with 16 samples.

Results

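Lipopolysaccharide (LPS), a component of the bacterial cell wall, activates resting B cells. In mouse splenic B cells given LPS, the Myc signal met a rule for standing above IgG at a small set of places in the genome. Chromatin immunoprecipitation followed by sequencing (ChIP-seq) had been carried out with 2 Myc libraries and 3 IgG control libraries of these cells, which are 5 of the 16 libraries of a study of mouse splenic B and T cells. Chromosomes 1 to 19 were divided into 4924850 bins of 500 bp, and a bin was called enriched in a Myc library where it held at least 5 reads and at least 4-fold the depth-scaled reads (RPM) of the summed IgG libraries. Both Myc libraries met that rule at 922 bins, or 0.0187% of all bins, and these shared enriched bins are described here. Their number depends on depth and thresholds. It was 215 at 8-fold and 1480 with at least 4 Myc reads, so it is not a count of all places that Myc binds.

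All 5 libraries came from spleen B cells given 25 µg/ml LPS for 4 h, named B4 in the titles. The Myc libraries used an anti-EGFP antibody, which recognises a fluorescent protein fused to Myc, so the signal is that of the tagged protein. A non-specific IgG served as control. The titles mark IgG replicate 2 as wt without explaining the mark, and its cells may differ in genotype from the other libraries. Titles of libraries given the compound 10058-F4 carry 10058 in that place, so wt may instead mark cells without the compound. The labels do not say whether the replicates came from separate animals, so the tests measure the spread between libraries, which may be technical.

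Myc is a basic helix-loop-helix leucine zipper protein that binds DNA as a dimer with Max, preferring the E-box motif, and is found mostly at promoters that are already in an open state. Mitogens such as LPS induce Myc early, before resting B cells enlarge and divide. At promoters Myc recruits factors that acetylate histones and release paused RNA polymerase II (Pol2). For that reason Pol2 libraries of LPS-treated B cells are used as a reference map. The title of the main Pol2 library carries the mark wt, as does that of IgG replicate 2. Its cells may therefore differ in genotype from those of the Myc libraries. The bins are named by their position in mouse build mm8, and no gene or sequence was assigned to them. Whether the deposited positions start at 0 or 1 is not stated, so a position may be off by 1 base.

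After removal of reads that shared a 5′ end and strand with another, Myc replicate 1 held 2141694 reads on chromosomes 1 to 19 and Myc replicate 2 held 3099793. IgG replicates 1, 2 and 3 held 3367741, 1278471 and 5119994 reads. At this depth a bin held 0.203 RPM on average, which is less than 1 read in 4 of the 5 libraries and just over 1 read in IgG replicate 3. Reads were 24 to 30 bases long in Myc replicate 1 and IgG replicate 1 and 45 bases long in the other libraries. In Myc replicate 1, 5.29% of the reads shared a 5′ end with another, against 0.0808% in IgG replicate 1. The share was 0% in Myc replicate 2 and in IgG replicates 2 and 3. Keeping or removing such reads therefore changes the counts of Myc replicate 1 and IgG replicate 1 alone.

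Single libraries gave many more bins than the pair. Myc replicate 1 had 15285 enriched bins (0.31% of all bins) and Myc replicate 2 had 8383 (0.17%). The 922 bins in both were 6.03% of the first list (exact Clopper-Pearson 95% interval 5.66 to 6.42%) and 11.0% of the second (10.3 to 11.7%). Intervals here and throughout cover counting error only. Among the 3095 bins that held at least 5 reads in both Myc libraries, 29.8% were past 4-fold in both.

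Both lists rest on the same summed IgG libraries, so the Myc libraries were also set against IgG libraries with matching titles and none in common. With Myc replicate 1 over IgG replicate 1 and Myc replicate 2 over IgG replicate 3, 1005 bins were enriched in both, and 732 of the 922 shared bins (79.4%) were among them. The share of bins found again rose with the number of reads in the bin. Of Myc replicate 1 bins with at least 5 reads, 7.06% were also enriched in replicate 2, against 36.4% with at least 10 reads and 66.1% with at least 20 (57.0 to 74.5%, 121 bins). Of Myc replicate 2 bins, 11.3% with at least 5 reads were also enriched in replicate 1, against 58.5% with at least 10 and 90.4% with at least 20 (79.0 to 96.8%, 52 bins). Many bins held no read of the other library: 44.6% of the list of Myc replicate 2 had 0 reads of Myc replicate 1, and 32.6% of the list of Myc replicate 1 had 0 reads of Myc replicate 2.

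**Figure D1:**
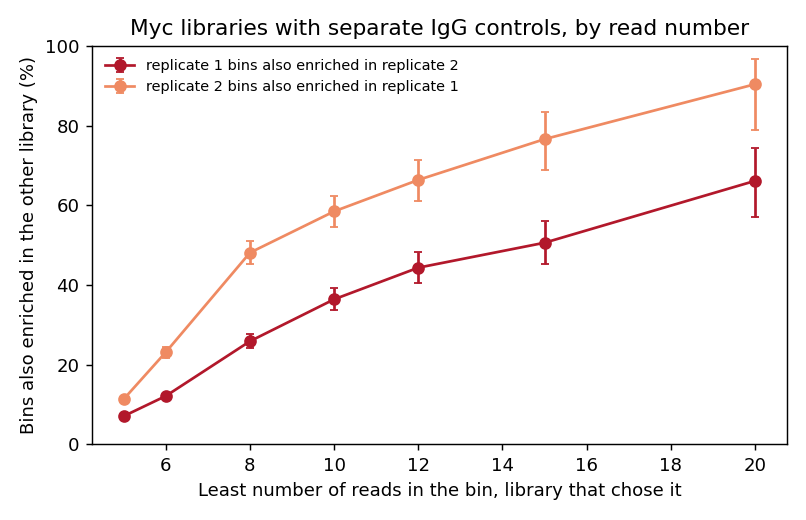
Share of enriched bins of each Myc library that were also enriched in the other (y axis, percent, with exact 95% intervals), against the least number of reads in the bin in the library that chose it (x axis), with IgG replicate 1 as control of Myc replicate 1 and IgG replicate 3 as control of Myc replicate 2. Shares climb from 7.06% and 11.3% at 5 reads to 66.1% and 90.4% at 20 reads.

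The same count was made with IgG libraries in the place of Myc, thinned to the Myc depths where they were deeper. Over IgG replicate 2 alone, the Myc pair shared 880 bins and the pair of IgG replicates 1 and 3 shared 79. Over IgG replicate 3 the Myc pair shared 1319 and the other IgG pair 33, and over IgG replicate 1 the counts were 1542 and 59. With the sides exchanged, IgG replicates 1 and 3 shared 25 bins over the summed Myc libraries. Each Myc pair gave at least 880 bins where the IgG pair over the same control gave at most 79. Only the pair of IgG replicates 1 and 3 matched the Myc depths. IgG replicate 2 held 1278471 reads, fewer than either Myc library, so the pairs with it were not compared at equal depth. Of the 880, 1319 and 1542 bins of the Myc pair, 455, 775 and 790 were among the 922 shared bins.

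At the shared bins the 2 Myc libraries held few reads in absolute number, and the IgG libraries fewer still. Myc replicate 1 held 5 to 62 reads per bin with a median of 8, and Myc replicate 2 held 5 to 46 with a median of 9. The median was 1 read in each of the 3 IgG libraries, with a highest value of 8, 7 and 8. Only 23 bins had at least 20 reads in both Myc libraries, 250 had at least 10 and 135 had 5 or 6 in both. The sum of the 3 IgG libraries had a median of 3 reads and reached 16, and it was 0 at 28 bins (3.04%).

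Scaled to depth, Myc replicate 1 averaged 4.84 RPM and Myc replicate 2 3.16 RPM at these bins, or 23.8 and 15.6 times the genome mean. The IgG libraries averaged 0.319, 0.825 and 0.356 RPM, or 1.57, 4.07 and 1.75 times the genome mean. IgG replicate 2, the IgG library marked wt, was thus the highest control at the places where Myc was enriched. The bins took up 0.446% and 0.291% of the reads of the Myc libraries and 0.0294%, 0.0761% and 0.0328% of those of IgG replicates 1 to 3. These levels follow in part from the rule that chose the bins and are given as a description.

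**Figure D2:**
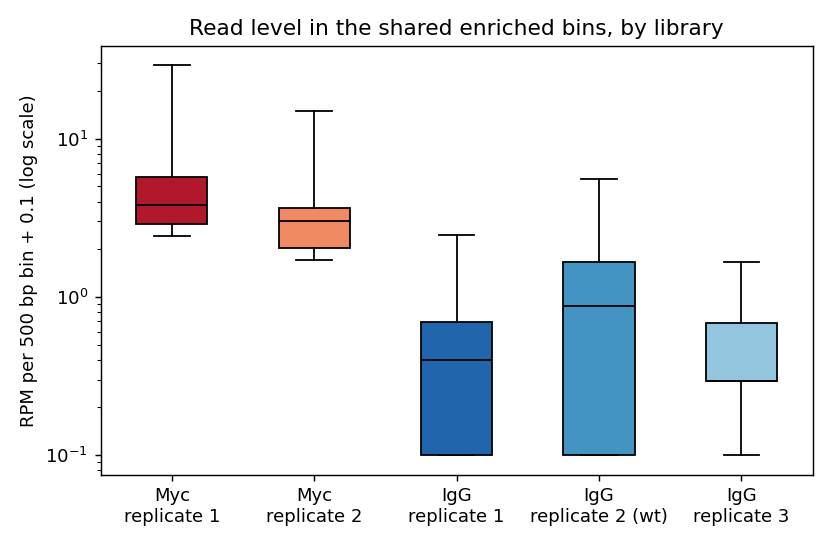
Depth-scaled reads (y axis, RPM with 0.1 added, log scale) at the 922 shared enriched bins in each of the 2 Myc and 3 IgG libraries of LPS-treated B cells, with the line at the median, the box over the middle 50% of bins and whiskers to the lowest and highest. Means were 4.84 and 3.16 RPM for Myc and 0.319, 0.825 and 0.356 RPM for IgG replicates 1 to 3.

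Enrichment, the log2 ratio of Myc to summed IgG RPM with 0.1 RPM added to each, had a median of 3.14 in Myc replicate 1 (95% interval 3.05 to 3.24, range 2.02 to 6.70). In Myc replicate 2 the median was 2.56 (2.53 to 2.59, range 2.01 to 5.42). Replicate 1 was the higher of the 2 at 767 of 922 bins (83.2%). Where the 28 bins with 0 IgG reads were set to the bound that 3 IgG reads over the 3 libraries allow, the medians were 3.11 and 2.53. RPM in the 2 Myc libraries went together across the 922 bins, with Pearson's r of 0.60 on the log2 scale and Spearman's rho of 0.56. The bins are not replicates, and both libraries had to pass a minimum in each.

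The highest bins by the lower of the 2 enrichments were mostly bins without IgG reads. Of the 10 highest, 8 had 0 reads in all 3 IgG libraries. At chr10:117195501-117196000, the first in rank, the Myc libraries held 10 and 13 reads, which is at least 15.2-fold and 13.7-fold higher than 3 IgG reads over the group. At chr4:147435501-147436000 they held 14 and 11 reads, at least 21.3-fold and 11.6-fold higher. The bin chr2:124938501-124939000 held 9 and 11 reads. The other five without IgG reads held 6 to 8 reads in Myc replicate 1 and 8 to 10 in Myc replicate 2, so their rank rests on small numbers.

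A pair of the 10 highest carried far more reads. At chr5:142620001-142620500 Myc replicate 1 held 45 reads and Myc replicate 2 held 46, the highest value of replicate 2 at any shared bin, against 1, 0 and 3 in IgG replicates 1 to 3. Its log2 enrichment was 5.37 and 4.87. At chr4:154836001-154836500 the Myc libraries held 45 and 29 reads against 0, 0 and 2, for a log2 enrichment of 6.11 and 4.96. In both bins each Myc library stood above all 3 IgG libraries, which follows in part from the rule that chose them. The 75 and 45 Pol2 reads in them also placed both among the 62878 bins where Pol2 was enriched.

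At the edge of the rule, the bins just inside and just outside had nearly the same enrichment in Myc replicate 2 and differed in their read numbers. The bins chr3:138380001-138380500, chr6:115774001-115774500 and chr12:72055001-72055500 had a log2 enrichment of 2.01 in Myc replicate 2, each with 15 Myc replicate 2 reads and 11 IgG reads. The bins chr1:38074001-38074500, chr1:75026001-75026500 and chr1:182245501-182246000, just under 4-fold, each had 6 Myc replicate 2 reads and 4 IgG reads. In Myc replicate 1 the log2 enrichment was 2.44, 2.22 and 2.63 in the bins inside and 3.70, 2.91 and 3.89 in those outside. The named bins outside were thus the higher ones in that library. On each side the named bins had equal values in Myc replicate 2, so they do not describe all bins left out.

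Most enriched places were a single bin wide. Adjacent shared bins were joined into 867 runs, of which 816 (94.1%) were a single bin, 47 were 1000 bp wide and 4 were 1500 bp wide. Of the 1731 bins that flanked a run, 12.5% were enriched in Myc replicate 1 and 4.10% in Myc replicate 2, both above the 0.31% and 0.17% of all bins. Mean Myc signal in the flanking bins was 1.32 and 0.800 RPM, against 0.488 RPM in summed IgG. Pol2-enriched bins formed wider stretches, with 62.2% of 36698 runs a single bin. They were called in a single library without IgG, and shared Myc bins had to pass over IgG in both libraries. The run widths of Myc and Pol2 are therefore not measured alike.

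The widest run, chr1:88189501-88191000, held 83 and 76 Myc reads against 6, 2 and 8 IgG reads. The run chr6:72368001-72369500 held 37 and 46 against 8, 1 and 6. At chr8:82535001-82536500 the Myc libraries held 28 and 44 reads against 4, 3 and 3. In each of these runs both Myc libraries were above every IgG library, which follows in part from the rule that chose the bins. The remaining run of 1500 bp, chr15:80082001-80083500, held 22 and 29 against 2, 3 and 6, and the fullest run of 1000 bp, chr6:86492001-86493000, held 47 and 48 against 4, 3 and 3.

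Width was also measured without the bin grid, from read profiles around each run. The summit was set in one Myc library and the profile read from the other. Both libraries had to pass the rule in each run, so the height of the profile is a description of chosen places. Myc replicate 1 around the summits of replicate 2 had a width at 50% of its height of 270 bp, and Myc replicate 2 around the summits of replicate 1 had 317 bp. The centre stood 20.8-fold and 19.8-fold above the flanks. Fragment length sets a lower limit to such widths, and the strand offset of the whole library, an estimate of that length, was 98 bases in Myc replicate 1 and 173 in replicate 2.

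IgG showed a low centre at the same summits, which the rule also fixes in part, since it asked for Myc at 4-fold over summed IgG. With summits from Myc replicate 1, the centre was 1.21-fold the flank in IgG replicate 1, 2.83-fold in IgG replicate 2 and 1.90-fold in IgG replicate 3. Pol2 had a centre of 20.9-fold there and a wider profile than Myc. Its width at 50% height was 495 bp around replicate 1 summits and 461 bp around replicate 2 summits. Pol2 was read around Myc summits and not around summits of its own, so the widths of Pol2 and Myc are not measured alike.

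Both strands contributed alike. Around the other library's summit, Myc replicate 1 had 5102 forward and 5105 reverse reads, with median positions 81 bases apart. Myc replicate 2 had 4734 forward and 4673 reverse reads, 110 bases apart. The summits of the 2 libraries in a run lay a median of 72 bp apart, and 84.0% lay within 200 bp. That distance is limited by the run, which is 500 bp in most cases.

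**Figure D3:**
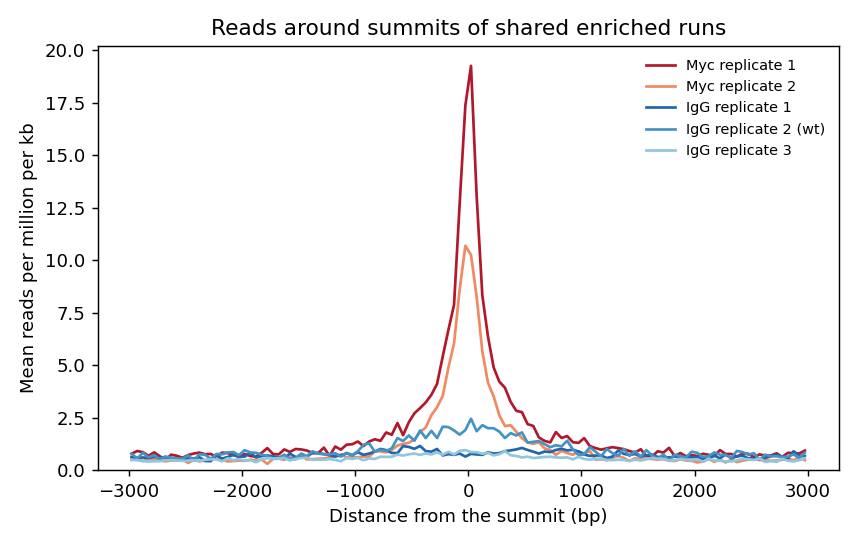
Mean read density (y axis, RPM per kb) against distance from the summit (x axis, bp) over the 867 runs, with each Myc library centred on the summits of the other. Myc widths at 50% of height are 270 and 317 bp, and the IgG profiles stay low, with a small centre that is highest in IgG replicate 2.

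Most runs stood alone. The median distance from a run to the nearest other was 359.5 kb (95% interval 288.5 to 409.5 kb), with 10% of runs within 32 kb and 90% within 3020 kb. The median followed the rule's strictness, from 197 kb at 3-fold to 2219.5 kb at 8-fold, with 752.5 kb at 8 reads and 1172.5 kb with 0.5 RPM added. Another run lay within 10 kb of 33 runs (3.81%), within 100 kb of 207 (23.9%) and within 1 Mb of 618 (71.3%). Counted by bins, adjacent bins included, 135 of 922 (14.6%, 12.4 to 17.1%) had another shared bin within 10 kb.

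Distances depend on how many places are counted, and Pol2 gives a reference only in that light. The 36698 Pol2 runs had a median distance of 3.5 kb, and 89.1% of Pol2 bins had another within 10 kb. The single Myc lists, also longer, had medians of 32.5 kb in replicate 1 and 89 kb in replicate 2.

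**Figure D4:**
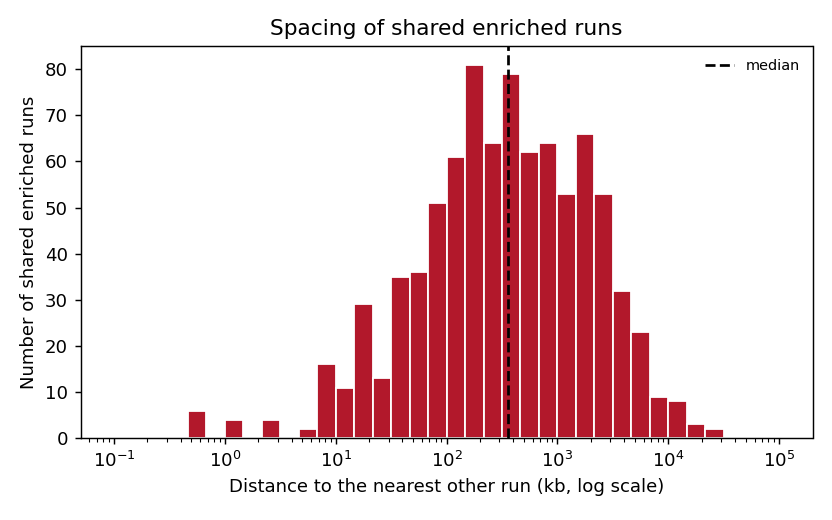
Number of the 867 shared enriched runs (y axis) by distance to the nearest other run (x axis, kb, log scale), with a dashed line at the median. The median is 359.5 kb, and 33 runs lie within 10 kb of another.

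Runs chained by gaps of at most 50 kb made 796 clusters. Of these, 735 held a single run and 780 of the 922 bins (84.6%). The other 61 clusters held 142 bins (15.4%): 53 had 2 runs, 6 had 3 and 2 had 4. Bins in clusters of at least 2 runs had a median of 10 reads in each Myc library, against 8 and 9 in bins that stood in a cluster of 1 run. Their median log2 enrichment was 3.28 and 2.53, against 3.10 and 2.56.

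The clusters with most bins held 3 or 4 bins each, with 5 to 42 reads of Myc replicate 1 per bin. In chr4:147402501-147470000, which spans 67.5 kb, the 4 bins held 13, 17, 14 and 12 reads of Myc replicate 1 and 7, 28, 11 and 7 of Myc replicate 2, against 1, 3, 0 and 3 summed IgG reads. In chr11:120365501-120415000, over 49.5 kb, the 4 bins held 5, 10, 27 and 9 and then 9, 10, 20 and 5 Myc reads, against 3, 4, 2 and 1 summed IgG reads. In both Myc libraries the chromosome 11 cluster was led by the bin at 120397501, and the chromosome 4 cluster by the bin at 147435001. In chr7:127024001-127081000, over 57 kb, they held 13, 25, 11 and 7 and then 10, 10, 7 and 5 reads, against 5, 5, 4 and 2. The cluster chr15:80082001-80092000 is the run of 1500 bp named above with a single bin 8 kb further on, which held 11 and 8 Myc reads against 3 summed IgG reads. The last of the 5 fullest clusters was the widest run alone, at chr1:88189501-88191000.

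In windows of 1 Mb the shared runs were unevenly spread. Of 2410 windows, 1835 (76.1%) held none, 391 held 1, 115 held 2 and 69 held 3 or more. The variance of the number per window was 1.71 times its mean, where a Poisson count has a ratio of 1. Pol2 runs, which are far more numerous, had a ratio of 29.8. The tenth of windows with most shared runs held 61.5% of them, and the tenth with most Pol2 runs held 43.8% of those. With 76.1% of windows empty, the 61.5% follows in part from the small number of shared runs.

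The fullest window, chr8:73000001-74000000, held 8 runs, and 10 windows held at least 5. Its 8 bins held 5 to 13 reads of Myc replicate 1 and 6 to 11 of Myc replicate 2, with 0 to 7 summed IgG reads, so it was full by number and not by height. The windows chr4:154000001-155000000 and chr7:127000001-128000000 held 6 runs each. The former contains the high bin at 154836001 with 45 and 29 reads, and the latter contains the 4-bin cluster and a bin with 36 and 11 reads. These 3 windows were picked after the counts were seen.

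The crowded windows were those rich in Pol2. Windows were ranked by their number of Pol2 runs into 4 groups of about the same size. The group with no Pol2 run held 3 shared Myc runs, the next 55, the next 204 and the group with most Pol2 runs held 605 (69.8%), while that last group held 74.9% of the Pol2 runs. Per 1000 Pol2 runs the number of shared Myc runs was 30.4, 27.6 and 22.0 in the groups that had any. Across the 2410 windows r was 0.59 and rho 0.53, a description of windows that share libraries, mappability and base composition.

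The longest stretch without a shared bin was chr1:97498501-133835000, 36.3 Mb long, with 350 Pol2-enriched bins inside. The next were chr15:5064001-36553500 (31.5 Mb, 294 Pol2 bins), chr3:8907001-37504000 (28.6 Mb, 267), chr16:59414501-87344000 (27.9 Mb, 140) and chr14:86248001-113922500 (27.7 Mb, 96). Pol2-enriched bins were sparse there, with 3.47 to 9.63 per Mb.

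The most isolated, chr15:5063501-5064000, lay 31490 kb from any other shared bin and held 16 and 14 Myc reads against 5, 4 and 0 IgG reads. The second, chr3:8906501-8907000, held 12 and 18 against 3, 0 and 6. Both were past the median of 8 and 9 Myc reads, and at both 1 IgG library was at 0 and another at 5 or more. The chromosome 15 bin depended on the control, as 4 of its IgG reads lay in the shallow IgG replicate 2. Its mean log2 enrichment over the Myc libraries was 2.53. It was 1.85 with the mean of IgG RPM and 1.54 without IgG replicate 3, both under 4-fold. Without IgG replicates 1 and 2 in turn it was 3.03 and 3.10. The bin chr1:10025001-10025500 held 5 and 9 reads against 2, 0 and 0, the bin chr17:4950501-4951000 held 5 and 8 against 0, 0 and 1, and chr16:59414001-59414500 held 18 and 12 against 1, 3 and 4. All of these except the chromosome 16 bin were the first shared bin of their chromosome. They could thus have a neighbour on only 1 side, which favours long distances.

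By chromosome, density ranged 4.15-fold. Chromosome 11 was the densest, with 99 shared bins and 0.833 per Mb (exact Poisson 95% interval 0.677 to 1.01). Chromosomes 17, 7, 5 and 8 followed with 0.575, 0.535, 0.470 and 0.465 per Mb. The interval of chromosome 11 overlapped that of chromosome 17 and of no other chromosome. The lowest were chromosome 1 with 39 bins and 0.201 per Mb, and chromosome 14 with 0.223 per Mb. The 5 densest chromosomes held 358 bins, 38.8% of all on 26.2% of the span.

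Much of that range went with Pol2. Per 1000 Pol2-enriched bins the number of shared bins ran from 10.3 on chromosome 19 to 18.9 on chromosome 12, a 1.83-fold range around a mean of 14.7. Chromosome 11 had 15.5 and chromosome 1 had 11.5. Across the 19 chromosomes the densities of shared Myc bins and of Pol2 bins had r of 0.92 and rho of 0.85. This is a description over chromosomes, which share gene density and base composition.

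**Figure D5:**
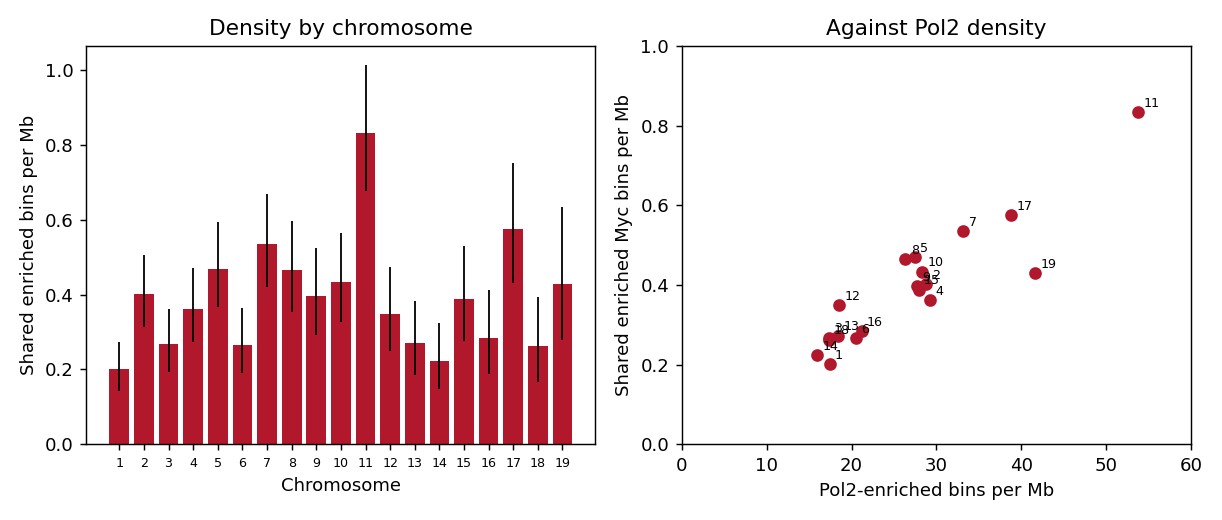
Left, shared enriched bins per Mb on each of chromosomes 1 to 19 with exact Poisson 95% intervals. Right, the same densities (y axis) against Pol2-enriched bins per Mb (x axis), where chromosome 11 is highest on both axes and r is 0.92.

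Along the chromosomes, each divided into 5 equal stretches from the lowest coordinate, the shared bins numbered 138 to 191 in each of the first 4 stretches and 271 in the last. The last stretch held 29.4% of the shared bins and 28.9% of Pol2-enriched bins. Both were densest in the last stretch, and each Pol2 share lay within the 95% interval of the Myc share.

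Nearly all shared bins lay where Pol2 was enriched. A bin was called Pol2-enriched where the single Pol2 library of LPS-treated B cells held at least 5 reads and at least 4-fold its mean, with no IgG control, and 1.28% of all bins met this. Of the 922 shared bins, 885 (96.0%, 94.5 to 97.2%) did. Of bins enriched in Myc replicate 1 alone the share was 27.2%, of those in Myc replicate 2 alone 16.1%, and of the 79 bins shared by the IgG pair 27.8%. The single-library lists were mostly near the read minimum: of Myc replicate 2 bins with at least 10 reads, 98.7% were Pol2-enriched.

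The shared bins were also high within Pol2, with a median at percentile 93.4 of all Pol2-enriched bins by Pol2 RPM. Of Pol2 bins with 5 or 6 Pol2 reads 0.0411% were shared Myc bins, of those with 20 to 29 reads 4.31%, and of those with 50 or more 15.6% (13.1 to 18.4%). Most of even the fullest Pol2 bins thus did not meet the rule in both Myc libraries at this depth. IgG moved with Pol2 as well: its replicates averaged 1.38, 3.83 and 1.76 RPM in the fullest Pol2 class, against 4.10 and 3.29 RPM for Myc. The part of that background in the Myc signal of those bins was not tested.

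The 37 shared bins outside Pol2-enriched bins were the weak ones. Their median was 5 reads in each Myc library, 30 of the 37 had 5 or 6 reads in both, and their median Pol2 count was 1 read. In the whole list 135 of 922 bins had 5 or 6 reads in both.

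Over the whole library, the share of reads in Pol2-enriched bins overlapped between Myc and IgG. It was 6.12% and 4.22% in Myc replicates 1 and 2 and 3.23%, 5.51% and 2.83% in IgG replicates 1 to 3. IgG replicate 2 lay above Myc replicate 2. The means were 5.17% ± 1.34 (SD, n = 2) and 3.86% ± 1.45 (SD, n = 3), a difference of 1.31 percentage points with a two-sided exact permutation p (the smaller tail doubled) of 0.4, where the smallest p this design allows is 0.2. Without IgG replicate 2 the difference was 2.14, without Myc replicate 1 it was 0.362, without Myc replicate 2 2.26 and without IgG replicate 3 0.798 percentage points. In the 9684 Pol2 bins with at least 20 reads, a setting added after seeing the data, the groups did not overlap: Myc held 2.14% and 1.502% of reads and IgG 0.637%, 1.44% and 0.688%, with the smallest p the design allows, 0.2 (exact permutation).

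Other Myc libraries of the study, each over its own IgG, were read at the same 922 bins. In splenic T cells given concanavalin A for 4 h (T4) 41.3% of the bins were enriched (38.1 to 44.6%) against 0.737% of all bins, with a median log2 enrichment of 1.96. In B cells without LPS (B0) 7.48% were enriched against 1.66%, with a median of 0.44. In LPS-treated B cells that also received 10058-F4, a compound that disrupts the pairing of Myc with Max, 7.70% were enriched against 0.271%, with a median of 0.72. These are 1 Myc library each, of differing depth and read length, so they have no replicate check. The bins were chosen for high Myc and low IgG in B4. The IgG controls of the other libraries were not part of that choice. They averaged 0.634 RPM at these bins for T4, 0.960 for B0 and 0.748 with 10058-F4. How far the choice of bins lowers the shares in the other libraries was not tested.

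A test across bins was run with limma on voom-weighted log2 counts, with Benjamini-Hochberg adjustment, over the 3909 bins that held at least 20 reads in the 5 libraries together. At an adjusted p below 0.05, 443 bins (11.3%) were higher in Myc and 0 were lower. Unadjusted, 1394 had a limma p under 0.05 and 1391 of them were higher in Myc. Of all tested bins, 3265 (83.5%) were higher in Myc, and the median log2 fold change of all tested bins was 1.36. The called bins had a median log2 fold change of 3.13 (range 2.17 to 5.56) with a median standard error of 0.95. In 386 of the 443 (87.1%) both Myc libraries stood above all 3 IgG libraries, against 1533 (39.2%) of all tested bins. The 87.1% is a description of bins called for being higher in Myc.

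Many bins entered that test through their Myc reads, since Myc gave a median of 56.5% of the reads in tested bins and 34.9% of all reads. The direction of the calls thus follows in part from that filter. The smallest adjusted p belonged to chr11:102005501-102006000, which was picked after the values were seen. It held 62 and 22 Myc reads against 3, 4 and 0 IgG reads, with a log2 fold change of 5.29 ± 0.96 (SE) and an adjusted p of 0.000153. Its 62 reads are the most that Myc replicate 1 held at any shared bin, and both Myc libraries were above all 3 IgG libraries. Of the 922 shared bins, 517 were tested and 329 were called, which is the same contrast as the rule that chose them.

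The number of limma calls was not stable. It was 0 without IgG replicate 2 (683 bins unadjusted at p under 0.05), 22 without Myc replicate 1, 26 without IgG replicate 3, 61 without IgG replicate 1 and 514 without Myc replicate 2. With limma-trend in place of voom 35 bins were called, and none of these settings called a bin lower in Myc. A block on replicates with matching titles, over 4 libraries, called 778 bins higher and 14 lower, where the same 4 libraries without the block gave 0 of either (683 unadjusted). The count of shared bins also moved with the rule, from 215 at 8-fold and 411 at 8 reads to 1444 at 3-fold and 1480 at 4 reads.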

How the data were processed

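Aligned reads of 2 Myc and 3 IgG ChIP-seq libraries of LPS-treated B cells (B4) were used, grouped by title. The authors deposited, for each library, a list of aligned reads with positions, length and strand, without counts or called regions. CASAVA 1.0, Bowtie 0.12.7 and build mm8 are named in the submitters' processing notes; the settings were not given in the sources used here. The 14-hour T cell libraries were not used.

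Reads that shared both 5′ end and strand were reduced to 1, read midpoints on chromosomes 1 to 19 were counted in 500 bp bins, and counts were scaled to the library's kept reads on these chromosomes (RPM). A pseudocount of 0.1 RPM was added for ratios. Medians have order-statistic and shares Clopper-Pearson 95% intervals. Total reads were 1278471 to 5119994 per library, so a bin with 5 reads is known only roughly. The 5 libraries all differ in their number of reads, so none is a copy of another. Python 3.11.15, numpy 2.4.6, scipy 1.17.1, R 4.3.3 and limma 3.58.1 were used. The limma script was tested on simulated data.

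Named bins were the 10 with the highest lower enrichment, the 5 widest runs, the 5 clusters with most bins, the 5 most isolated bins and 3 on each side of the threshold. The bins, lists and tests were chosen with earlier results of these data known. Alternatives covered bin width, read minimum, fold, pseudocount, control, scaling, thinning, duplicates and left-out libraries.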

Additional observations from a re-analysis of the deposited data

How the results depend on the processing

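The number of shared bins was 1480 with at least 4 Myc reads, 411 with at least 8, 1444 at 3-fold, 215 at 8-fold and 311 with 0.5 RPM added. Over IgG replicate 1 alone it was 1542, a control chosen after seeing the data, as were the separate IgG controls (1005 and, exchanged, 1158). Leaving out 1 library gave 968 to 15285, where the high end is a single Myc library and no longer a shared count. With 250 bp and 1000 bp bins there were 760 and 833 shared bins, and with reads moved to the fragment centre 975. These overlapped 498 (54.0%), 454 (49.2%) and 740 (80.3%) of the 922 bins. The share of bins with another within 10 kb was 24.1% with 250 bp bins, 6.002% with 1000 bp bins, 18.8% at 3-fold, 4.65% at 8-fold and 11.3% with 0.5 RPM added, and 12.4 to 29.6% with 1 library left out. For the 21 named bins, 148 of 189 alternative values of log2 enrichment lay within 1 SD of the first, 41 moved more and 0 changed sign. The SD was that between the Myc libraries, so values without 1 Myc library lay within it by construction. At the 8 named bins with 0 IgG reads, leaving out or averaging IgG libraries could not change the value. The 148 is therefore not a measure of stability.

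The labels give no replicate numbers that pair Myc with IgG. A replicate block built from the matching titles, on 4 libraries, called 778 bins higher and 14 lower, and the same 4 libraries without a block called 0 (683 unadjusted). Limma called 35 bins with limma-trend, 47 with at least 10 reads in total, 0 with at least 40 (123 unadjusted), 42 in the libraries of 45-base reads and 0 to 514 with 1 library left out. The difference in the share of reads in Pol2 bins was positive under each setting run, from 0.362 to 2.26 percentage points with 1 library left out and 0.900 with at least 20 Pol2 reads, which was added after seeing the data. Requiring 8-fold Pol2 changed nothing, since 5 reads are already 10.4-fold of the Pol2 mean. Depth limits these results: the median shared bin held 8 and 9 Myc reads.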
